A study of Mus musculus with 2 samples.

Results

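The 10 genes described here encode chaperones and protein disulfide isomerases of the endoplasmic reticulum (ER): Hspa5, Hsp90b1, Calr, Canx, Pdia3, Pdia4, Pdia6, P4hb, Hyou1 and Dnajc3. They were chosen by name, with earlier results of these data known, and their rows were read from 2 tables of cluster markers, one of hepatocytes and one of all cells. All 10 were listed in both tables, out of 2783 genes listed in either, 1604 in the hepatocyte table and 1755 in the table of all cells. The cells came from fasted male wild-type BALB/c mice. Per the methods, their hepatocytes were taken at 8 to 10 weeks of age, after perfusion of the liver with a digesting enzyme and without sorting. The mice had been injected into the peritoneum each day for 5 days, the control group with phosphate-buffered saline (PBS) and the other with recombinant IL-33 (rIL-33), an alarmin cytokine, at 0.5 µg a day. Each group gave 1 droplet-based 3ʹ single-cell library, 2 in all, and the number of mice behind a library was not given in the sources used here. Both tables pool the cells of both libraries, so PBS-treated and rIL-33-treated cells could not be compared, no test was run and no replicate spread exists.

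Secretory proteins enter the ER lumen unfolded, and hepatocytes, which make most of the plasma proteins, send a large flow of them through it. Hspa5 (BiP) binds exposed hydrophobic stretches and is driven by ATP with the help of J-domain partners such as Dnajc3 and of the exchange factor Hyou1, whereas Calr and Canx hold glycoproteins by their sugar chains and the disulfide isomerases Pdia3, Pdia4, Pdia6 and P4hb form and rearrange disulfide bonds. When unfolded proteins build up, the unfolded protein response acts through ATF6 and XBP1 on promoter elements of many of these genes.

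The best known of these elements is the ER stress response element (ERSE), in which a box for the factor NF-Y is followed at a fixed distance by a box for ATF6 or XBP1. Promoters from RefSeq on GRCm38.p6 (the assembly of the C57BL/6J strain, 250 bases before to 50 bases after a transcription start) were found for 9 of the 10 members, all but Hyou1, with 1 promoter each. Read on both strands, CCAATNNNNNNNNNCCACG occurred in 6 of the 9, in Hspa5, Hsp90b1, Calr, Canx, Pdia6 and Dnajc3, and Hsp90b1 held 2 copies. The same letters occurred in 0.119% of all 32851 promoters of the table and in 0.137% of its 27025 genes. The element was already known from promoters of many of these genes, so its frequency in the members is no independent result. The 7 copies lay between 212 and 47 bases before the start. They are shown 5′ to 3′ on the strand that reads CCAAT first, with 10 bases on each side and the fixed bases of the element in capitals. The boxes and their spacing are shared because the search required them, while the bases between and around them differ.
Hspa5, chr2:34772025-34772043, strand of the gene: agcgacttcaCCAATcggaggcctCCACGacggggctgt
Hsp90b1, chr10:86705638-86705656, strand of the gene: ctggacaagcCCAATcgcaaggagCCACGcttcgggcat
Hsp90b1, chr10:86705533-86705551, opposite strand: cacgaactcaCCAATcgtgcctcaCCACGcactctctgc
Calr, chr8:84847075-84847093, opposite strand: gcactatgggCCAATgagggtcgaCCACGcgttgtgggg
Canx, chr11:50325800-50325818, strand of the gene: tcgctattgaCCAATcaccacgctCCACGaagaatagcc
Pdia6, chr12:17266491-17266509, strand of the gene: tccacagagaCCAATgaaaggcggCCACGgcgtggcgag
Dnajc3, chr14:118937827-118937845, strand of the gene: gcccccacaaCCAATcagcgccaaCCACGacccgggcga

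With 1 mismatch allowed in the fixed bases, 8 of the 9 promoters held a match, P4hb being the exception, against 1.72% of all genes. The related elements ERSE-II (ATTGG and CCACG with 1 base between them) and TGACGTGG, also read on both strands, were in none of the 9, and in 0.0444% and 0.714% of all genes. Of 83 other ER genes in 7 lists, 68 had a promoter, older symbols included, and 4 of these held the exact ERSE: the luminal Creld2, the oxidase gene Ero1lb (Ero1b in RefSeq) and the degradation genes Derl3 and Syvn1. In the hepatocyte table, 7 genes with the element were listed for the cluster Hepatocyte4, the 6 members and the RNA-binding protein gene Hnrnpa3, out of 699 listed genes with a promoter (1.001%). For Hepatocyte5 they were the 6 members, Ero1lb and Syvn1, 8 out of 687 (1.16%). No gene listed for Hepatocyte1, Hepatocyte2 or Hepatocyte3 held it, out of 147, 45 and 105 with a promoter. With 0.137% over all genes, lists of this size would mostly hold none. The counts for Hepatocyte4 and Hepatocyte5 consist mainly of the members, so the element does not set the clusters apart. A match of letters is a description of the sequence, and binding was not measured in these data. The upstream sequences of Hspa5 (chr2:34771840-34772089, + strand) and Hsp90b1 (chr10:86705445-86705694, − strand) are given whole, up to the base before the start, since these genes had the highest shares of cells in the hepatocytes. Capitals again mark the fixed bases of the element. The second copy in Hsp90b1 lies on the opposite strand and therefore reads CGTGG first.
Hspa5: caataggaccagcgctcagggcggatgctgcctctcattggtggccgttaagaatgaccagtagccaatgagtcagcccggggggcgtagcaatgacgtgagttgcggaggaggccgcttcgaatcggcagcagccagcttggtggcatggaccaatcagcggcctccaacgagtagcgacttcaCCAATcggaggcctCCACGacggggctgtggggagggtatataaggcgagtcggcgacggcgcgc
Hsp90b1: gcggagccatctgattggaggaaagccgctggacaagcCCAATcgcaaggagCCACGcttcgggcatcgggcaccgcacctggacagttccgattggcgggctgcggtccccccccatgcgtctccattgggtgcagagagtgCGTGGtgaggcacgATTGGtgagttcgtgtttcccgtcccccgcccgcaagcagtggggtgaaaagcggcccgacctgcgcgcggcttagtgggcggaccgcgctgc

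**Figure D1:**
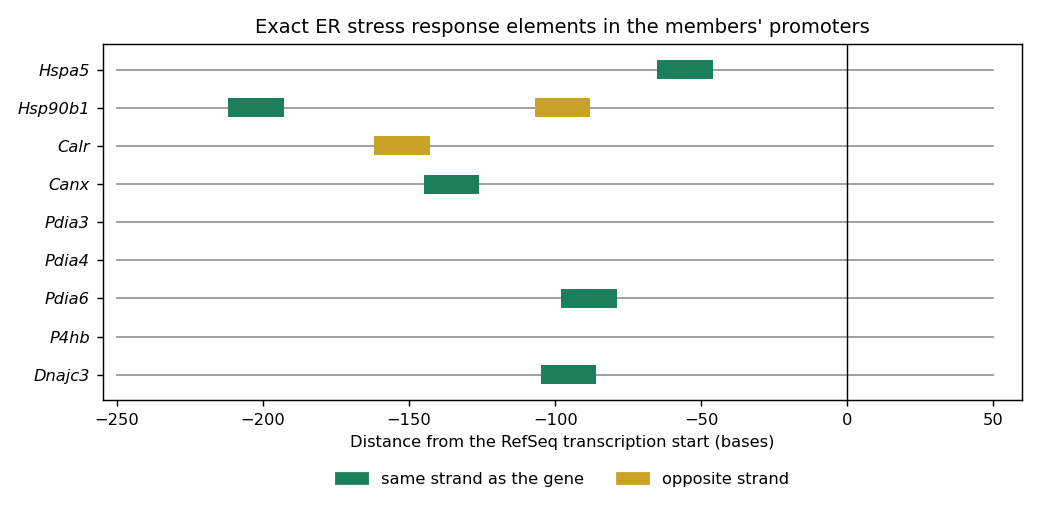
Position of each exact ERSE (coloured bar, 19 bases) in the promoters of the 9 members with a RefSeq promoter, in bases from the transcription start, coloured by strand. The 7 copies lie in 6 promoters, all before the start, and Pdia3, Pdia4 and P4hb have none.

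The measure throughout is the share of the cells of a cluster in which a gene had a value above 0, as deposited by the authors and rounded to 0.1 percentage points. In the hepatocyte table each of 5 hepatocyte clusters is set against the other hepatocytes. All 10 members were listed for Hepatocyte4 and for Hepatocyte5, and none for Hepatocyte1, Hepatocyte2 or Hepatocyte3. Among all genes of that table, 54.7% were listed for Hepatocyte4 and 54.3% for Hepatocyte5, and 26.8% for both. For the other clusters the figures were 10.5% for Hepatocyte1, 3.49% for Hepatocyte2 and 7.67% for Hepatocyte3. A listed gene reaches at least 25% in the cluster or in its reference cells, and absence from a list is not absence of the transcript. The balance of the shares fixes the relative cluster sizes, which were 55.6% for Hepatocyte1, 14.9% for Hepatocyte2, 10.1% for Hepatocyte3, 18.1% for Hepatocyte4 and 1.47% for Hepatocyte5. From these sizes, the share of each member was solved for Hepatocyte1, Hepatocyte2 and Hepatocyte3 combined, which hold most of the hepatocytes. The tables give shares without the cells and UMIs behind them, so the shares are printed without counting intervals.

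Hspa5, the ER member of the Hsp70 family (chr2:34771970-34777547, 9 exons in the longest GENCODE M21 transcript), was found in 88.0% of the cells of Hepatocyte4 and in 22.6% of the other hepatocytes. In Hepatocyte5 it was above 0 in 100% of the cells, against 33.5% outside. The solved share in Hepatocyte1 to Hepatocyte3 was 21.2%, with rounding limits of 21.1 to 21.3%. The difference of 65.4 percentage points in Hepatocyte4 was the largest of the 877 genes listed for that cluster. In Hepatocyte5, its difference of 66.5 points ranked 96 of 871.

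Hsp90b1 (GRP94), the ER form of Hsp90 that folds a narrower set of clients such as integrins and Toll-like receptors (chr10:86690209-86705509, 18 exons), followed closely. Its share was 84.3% in Hepatocyte4, 99.3% in Hepatocyte5 and 22.8% in Hepatocyte1 to Hepatocyte3. Hspa5 was thus above Hsp90b1 in Hepatocyte4 and Hepatocyte5 and below it in the other clusters together. The differences between both genes were 3.7 points or less. Hyou1, a large Hsp70-like exchange factor for Hspa5 (chr9:44379490-44392369, 26 exons), had the lowest shares of the 10, with 29.1% in Hepatocyte4, 54.3% in Hepatocyte5 and 1.99% (rounding limits 1.93 to 2.05%) in Hepatocyte1 to Hepatocyte3. Dnajc3 (p58IPK), a J-domain cochaperone of Hspa5 (chr14:118937976-118981697, 12 exons), was above 0 in 61.4% of Hepatocyte4 cells, 87.4% of Hepatocyte5 cells and 14.2% of the rest. The partners of Hspa5 therefore had lower shares than Hspa5 in every one of these groups of cells.

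Calr, the soluble lectin chaperone (chr8:84841850-84846934, 9 exons), had a share of 79.2% in Hepatocyte4, 98.0% in Hepatocyte5 and 18.4% in Hepatocyte1 to Hepatocyte3. Canx, its membrane-bound counterpart (chr11:50293961-50325673, 15 exons), had 70.5%, 94.7% and 13.6% in the same groups. Pdia3 (ERp57), the isomerase that Calr and Canx recruit to glycoproteins (chr2:121413775-121438687, 13 exons), had 57.7%, 92.1% and 11.7%. Calr stood above Canx and Canx above Pdia3 in all of these groups. The gap between Hepatocyte5 and Hepatocyte4 was widest in Pdia3, with 34.4 percentage points, and narrowest in Hspa5, with 12.0 points, where Hepatocyte5 had reached the ceiling of 100%.

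Among the other disulfide isomerases, P4hb (PDI itself, also the beta subunit of collagen prolyl 4-hydroxylase, chr11:120560298-120573253, 11 exons) had the highest shares, with 75.9% in Hepatocyte4, 96.0% in Hepatocyte5 and 22.4% in Hepatocyte1 to Hepatocyte3. Pdia4 (ERp72, chr6:47796141-47813430, 10 exons) had 57.0%, 87.4% and 8.20%. Pdia6 (P5, chr12:17266545-17284770, 13 exons), which also acts on the stress sensor IRE1, had 58.4%, 88.7% and 11.4%. Pdia3, Pdia4 and Pdia6 lay within 1.4 points of each other in Hepatocyte4 and within 4.7 points in Hepatocyte5. P4hb lay 17.5 points or more above them in Hepatocyte4.

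**Figure D2:**
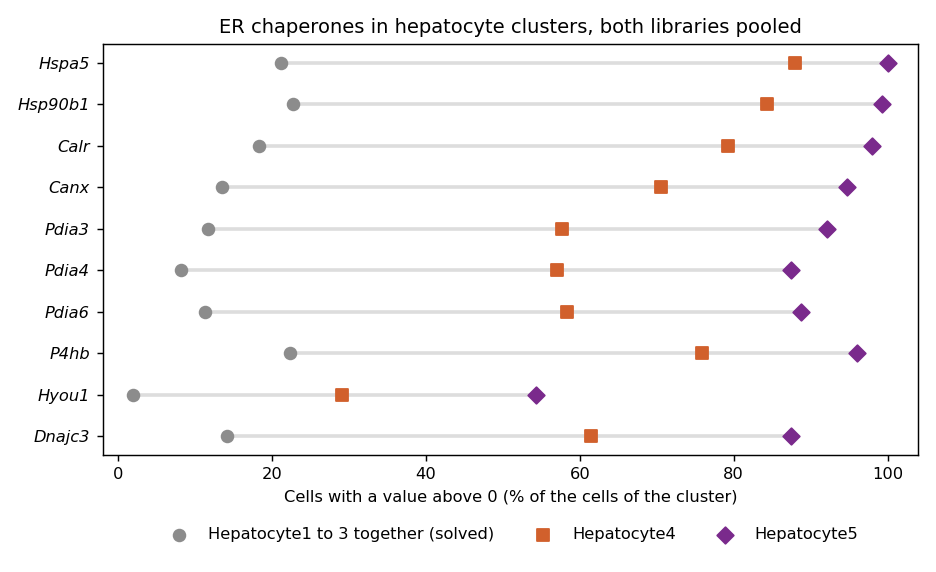
Share of cells with a value above 0 for each member (x axis, % of the cells) in Hepatocyte4 (squares), Hepatocyte5 (diamonds) and, solved from the balance of shares, Hepatocyte1 to Hepatocyte3 together (circles), with both libraries pooled and no error bars because there are no replicates. In all 10 genes Hepatocyte5 is highest and Hepatocyte1 to Hepatocyte3 lowest, and Hyou1 has the lowest share in each.

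Over the 10 members, the median share was 66.0% in Hepatocyte4 (29.1 to 88.0%), 93.4% in Hepatocyte5 (54.3 to 100%) and 13.9% in Hepatocyte1 to Hepatocyte3 (1.99 to 22.8%). The order of the genes was much the same in both listed clusters (Spearman's rho 0.94 across 10 genes, which share their cells and libraries). These are shares of cells in a 3ʹ assay, where a transcript gives a single tag whatever its length, and the order of shares between genes is not an order of transcript levels. All 10 members had a higher share in Hepatocyte5 than in Hepatocyte4, as did 98.8% of the 430 genes listed for both clusters. The median gap was 24.7 percentage points for the members and 21.9 points for the 430 genes. The direction therefore does not set the members apart.

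Compared with the other rows of the same clusters, the members were found in many cells. The median difference from the other hepatocytes was 49.8 points for the members in Hepatocyte4 and 33.1 points over the 877 listed genes, and in Hepatocyte5 it was 67.5 against 42.9 points over 871. Behind Hspa5 in Hepatocyte4 came Hsp90b1 in rank 8, Calr in rank 9, Canx in rank 29 and P4hb in rank 58 by this difference, while Hyou1 came in rank 630. In Hepatocyte5, Pdia3 led the members in rank 30, followed by Canx in rank 39 and Pdia4 in rank 44. A difference of shares depends on the level from which a gene starts. If the tags per cell followed a Poisson distribution, the shares of Hspa5 would correspond to a mean of 2.12 tags in a Hepatocyte4 cell and 0.238 in a cell of Hepatocyte1 to Hepatocyte3, a ratio of 8.90. On this scale the ratio ranged from 5.62 for P4hb to 17.1 for Hyou1, with a median of 7.49. Over 428 genes listed for Hepatocyte4 and Hepatocyte5 and for no other cluster, the median ratio was 7.60 (quartiles 5.85 and 9.26), and 5 of the 10 members lay above it. By this ratio the members, as a group, lay in the middle of the genes listed for the same clusters. The shares are not set at equal depth, and the part of tags per cell in them was not tested.

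**Figure D3:**
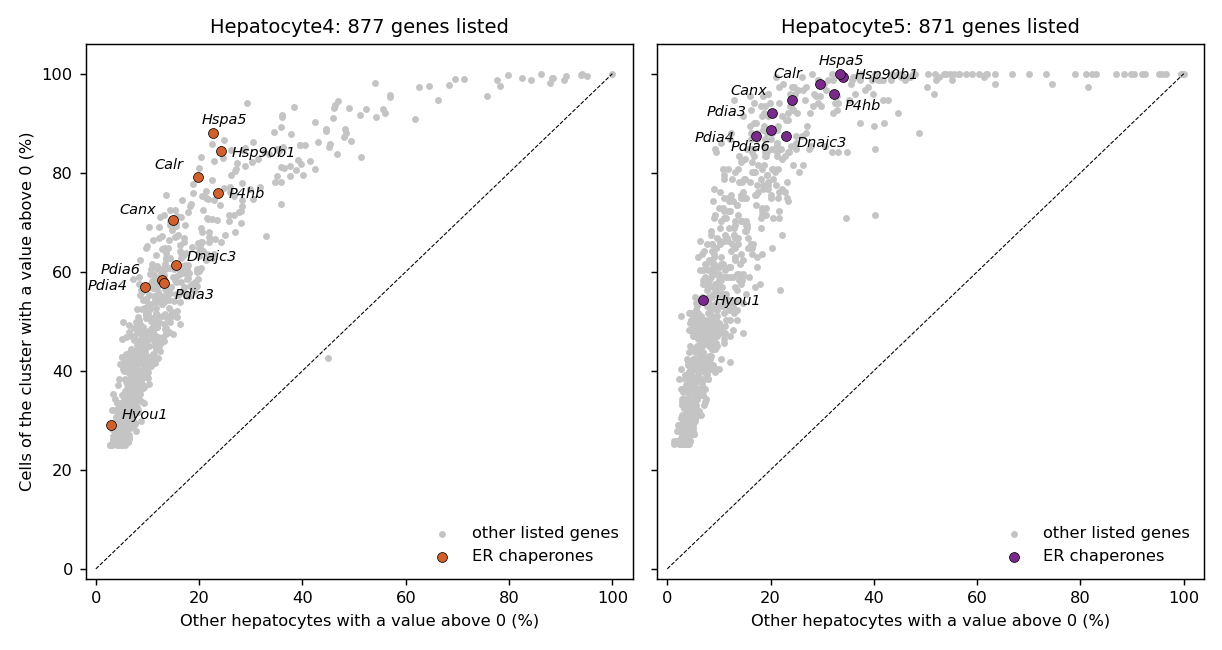
Share of the cluster's cells in which a gene was found (y axis, %) against the other hepatocytes (x axis, %) for every gene listed for Hepatocyte4 (left, 877 genes) and Hepatocyte5 (right, 871 genes), with the members labelled and the line of equal shares dashed. The members follow the band of the other genes, and Hspa5 in Hepatocyte4 is the gene farthest above the dashed line.

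Of the 430 genes listed for the same clusters as Hspa5, the 5 with the nearest shares (Euclidean distance over the shares inside and outside both clusters) were Apon, Hsp90b1, H2-K1, Lamp2 and C9. Their distances were 2.29, 4.14, 5.57, 5.67 and 6.16 percentage points. Apon, an apolipoprotein gene, was above 0 in 85.8% of Hepatocyte4 cells and 100% of Hepatocyte5 cells. Nearest to the median of the members were Cyp2j5 (1.17 points), Serpinf2 (2.97), Rrbp1 (3.42), Man1a (3.44) and Mttp (3.48). Rrbp1 encodes a ribosome receptor of the rough ER, Man1a a mannosidase of the secretory pathway, and Mttp the lipid transfer protein that loads lipoproteins and works as a dimer with P4hb. Mttp had a share of 63.7% in Hepatocyte4 and 94.0% in Hepatocyte5.

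The wider machinery was tallied in 7 lists of 83 genes. Of these, 45 were listed for a hepatocyte cluster: 25 (30.1%) for Hepatocyte4, 39 (47.0%) for Hepatocyte5 and 3 for Hepatocyte1. Among the 45 that were in the hepatocyte table at all, the percentages were 55.6% and 86.7%, beside 54.7% and 54.3% over all genes of that table, whereas all 10 members were in it and were listed for both clusters. Genes that attach and trim N-glycans came closest to the members, with 8 of 14 listed for Hepatocyte4 and 10 of 14 for Hepatocyte5. They include Rpn1 and Rpn2 of the oligosaccharyltransferase, with shares of 43.8% and 46.7% in Hepatocyte4 and 78.8% and 71.5% in Hepatocyte5. The cargo receptor pair Lman1 and Mcfd2, which carries glycoproteins such as coagulation factors out of the ER, had 54.1% and 53.5% in Hepatocyte4. Ganab and Prkcsh, the subunits of glucosidase II that hand glycoproteins to Calr and Canx, had 30.6% and 33.5% in Hepatocyte4 and 74.2% and 70.2% in Hepatocyte5. Uggt1, which sends misfolded glycoproteins back to them, was listed for Hepatocyte5 alone, with 37.7% against 4.6% outside. Stt3a, Stt3b, Mogs and Ddost made up the rest.

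Of the 14 genes of ER-associated degradation, 9 were in the hepatocyte table, 5 listed for Hepatocyte4 and 8 for Hepatocyte5. Over all genes of that table the percentages were 54.7% and 54.3%. Herpud1 had the highest shares, with 84.1% and 98.7%, close to those of Hsp90b1. Sel1l, the adaptor of the ubiquitin ligase Syvn1, had 46.4% and 66.2%, and Syvn1 itself was listed for Hepatocyte5 with 46.4%. Os9 and Edem1 were among the others listed for Hepatocyte4, and Derl1, Derl2 and Edem3 for Hepatocyte5 and not Hepatocyte4. Of 12 further chaperones and cochaperones, 6 were in the hepatocyte table, 2 listed for Hepatocyte4 and 5 for Hepatocyte5. Dnajb9, a J-domain partner of Hspa5, had 41.6% in Hepatocyte4 against 6.3% outside, and Sec63 had 36.5% against 6.5%. Dnajb11, Sil1 and Dnajc1 were listed for Hepatocyte5, with 52.3%, 38.4% and 41.7%. Of 13 further thiol oxidoreductases, 7 were in the hepatocyte table. Of these 7, 2 were listed for Hepatocyte4 (Qsox1 with 45.3% and Txndc5 with 27.7%). For Hepatocyte5 6 were listed, where Pdia5, Erp44, Ero1lb and Tmx1 joined them at 29.1 to 45.7%. The genes of both lists that were listed for Hepatocyte4 had shares below the median of the members there.

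Of the 15 genes of the translocon and of signal peptide cleavage, 7 were in the hepatocyte table. Of these 7, 5 were listed for Hepatocyte4 and 5 for Hepatocyte5, among them Sec62 with 70.6% and 93.4%. Srpr, Ssr1 and Tram1 were listed for both clusters, Ssr3 for Hepatocyte4 and Sec61a1 for Hepatocyte5. Of the 3 receptors that retrieve escaped ER proteins, Kdelr2 was listed, with 39.3% in Hepatocyte4 and 50.3% in Hepatocyte5. Of the 12 sensors and factors of the unfolded protein response, 4 were listed. Xbp1, whose spliced form acts on ERSE-type elements, had 52.7% in Hepatocyte4 and 72.2% in Hepatocyte5. Creb3l3, a liver factor of the ATF6 kind, had 70.3% and 95.4%. The sensors Atf6 and Ern1 were listed for Hepatocyte5, with 38.4% and 25.8%. Ddit3, Trib3, Atf4, Atf3, Asns, Chac1, Ppp1r15a and Eif2ak3 were listed for no hepatocyte cluster.

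In the table of all cells, each of 12 clusters is set against all other cells, and the hepatocyte clusters made up 90.0% of all cells by the solved sizes. Its values may be batch-integrated and its shares are not those of the hepatocyte table. Over 385 genes listed for Hepatocyte4 in both tables the share was a median of 13.9 points higher here, and over 409 for Hepatocyte5 it was 5.3 points higher. Among the members, the share in Hepatocyte4 was equal for Hspa5 (88.0%) and 14.5 points higher for P4hb (90.4% against 75.9%). The shares below are therefore compared only within this table. The labels of the clusters were set against marker lists. All 6 Kupffer cell markers, all 4 T cell markers, 4 of 5 neutrophil markers and 4 of 5 B cell markers were listed for the cluster of their name. For red blood cells this held for 2 of 6. The cluster named for hepatic stellate cells (HSC) and fibroblasts listed 5 of 6 stellate and fibroblast markers and also 4 of 5 endothelial ones, whereas the cluster labelled endothelial listed 2 of 5. The T cell marker Cd3d was also listed for neutrophils (43.0% against 13.1% outside). The endothelial markers Pecam1 and Cdh5 were listed for Kupffer cells, Pecam1 also for T cells, and the stellate marker Dcn for the cluster labelled endothelial. Of 4 hepatocyte markers, 1 was listed for Hepatocyte1, 2 each for Hepatocyte4 and Hepatocyte5, and none for Hepatocyte2 or Hepatocyte3. Alb, listed for Hepatocyte4 and Hepatocyte5, was above 0 in 100% of the cells on both sides.

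All 10 members were listed for Hepatocyte5 in this table (24.7% of its genes were), 9 for Hepatocyte4 (25.2%), 9 for B cells (29.1%), 8 for Kupffer cells (28.4%), 5 for T cells (34.1%) and 3 for the HSC and fibroblast cluster (30.5%). None was listed for Hepatocyte1 (1.77%), Hepatocyte2 (0.57%), Hepatocyte3 (2.11%), neutrophils (12.9%), red blood cells (18.2%) or the cluster labelled endothelial (5.58%). Pdia3 was the member not listed for Hepatocyte4, although the hepatocyte table lists it there, and P4hb was the member not listed for B cells. P4hb was listed for Hepatocyte4 and Hepatocyte5 alone. Its share outside Hepatocyte4, 52.8%, was the highest of the members that were listed there.

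**Figure D4:**
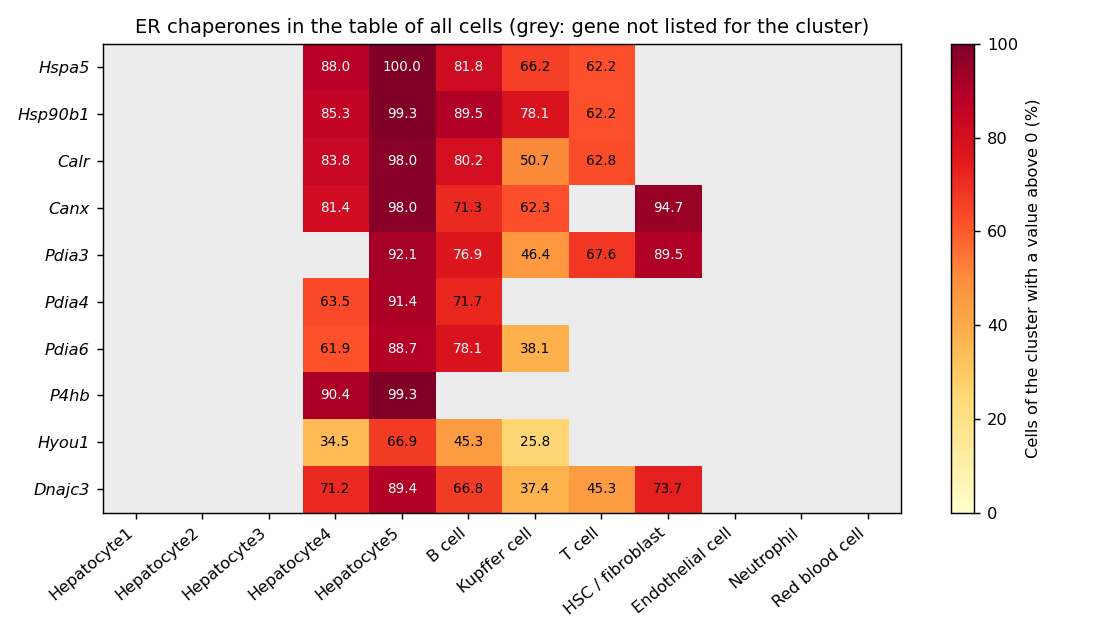
Share of cells with a value above 0 (colour and number, %) for the 10 members in each of the 12 clusters of the table of all cells; grey cells are genes not listed for that cluster. Hepatocyte5 has the highest number in every row, and B cells are the cluster outside the hepatocytes with the most members.

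In B cells the 9 listed members had shares of 45.3 to 89.5%, with a median of 76.9% against 39.4% in all other cells. The median difference was 32.3 points, and over the 511 genes listed for B cells it was 22.3 points. Hsp90b1 had the highest share, 89.5%, above the 85.3% of Hepatocyte4. Hspa5 followed with 81.8%, Calr with 80.2% and Pdia6 with 78.1%. The isomerases Pdia4 and Pdia6 had higher shares in B cells (71.7 and 78.1%) than in Hepatocyte4 (63.5 and 61.9%). Pdia3 had 76.9% in B cells and no listed Hepatocyte4 share in this table to compare it with. For Calr, Canx, Dnajc3 and Hspa5 the order was the other way round, with Hepatocyte4 ahead by 3.6 to 10.1 points. Hyou1 had 45.3% in B cells and 34.5% in Hepatocyte4. By difference from all other cells, Pdia6 came first of the members in B cells, in rank 42 of 511, with 44.4 points.

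The B cell cluster made up 2.19% of the cells. It listed Cd79a (60.3% of its cells against 7.8% of all others), Cd79b (55.9% against 2.5%), Ms4a1 (33.2% against 0.1%) and Ighm, and also 5 of 7 plasma cell markers. Antibody-secreting plasma cells carry an enlarged ER. The markers listed were Xbp1 (72.5% against 29.5%), Mzb1 (68.0% against 45.2%), Jchain (60.7% against 51.9%), Derl3 (49.0% against 10.0%) and Prdm1 (32.0% against 7.9%), while Sdc1 and Tnfrsf17 were not listed for B cells. The part of plasma cells in the members' shares was not tested. Jchain and Mzb1 were above 0 in 45.2% or more of the other cells, most of them hepatocytes, so a share in this table includes values above 0 in cells not known to express the gene.

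The wider ER lists were listed for B cells more fully than for the hepatocyte clusters of the same table. The counts were 44 of 83 genes (53.0%) for B cells, 20 (24.1%) for Hepatocyte4 and 19 (22.9%) for Hepatocyte5. Over all genes of this table the percentages were 29.1%, 25.2% and 24.7%. These are not on the same base, since a list also holds genes that are nowhere in this table. Of the 83, 49 were in this table at all, and of these 49 B cells listed 44, Hepatocyte4 20 and Hepatocyte5 19. T cells also listed 19. Of the translocon and signal peptidase genes, 13 of 15 were listed for B cells, among them Sec61b (90.3%), Sec11c (86.6% against 24.1% outside), Sec61g (85.8%), Ssr4 (83.4%) and Spcs2 (83.0%). Manf, Creld2 and Sdf2l1, which are secreted or luminal factors induced with Hspa5, were listed for B cells with 79.4%, 60.7% and 60.7% and for no hepatocyte cluster in either table. Erp29 had 87.9% in B cells and Ppib, a luminal prolyl isomerase, 88.7%. All 9 N-glycan genes listed in this table were listed for B cells, Dad1 with 78.9% and Ostc with 70.4%. Of the unfolded protein response genes, Xbp1 alone was listed for B cells. B cells thus listed members and translocon genes together, while Hepatocyte4 and Hepatocyte5 listed all or nearly all members and 4 or 5 of the 15 translocon genes. T cells also listed both, with 5 members and 9 of the 15 translocon genes, beside 34.1% of all genes of this table. Red blood cells listed 4 of the 15 and no member.

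**Figure D5:**
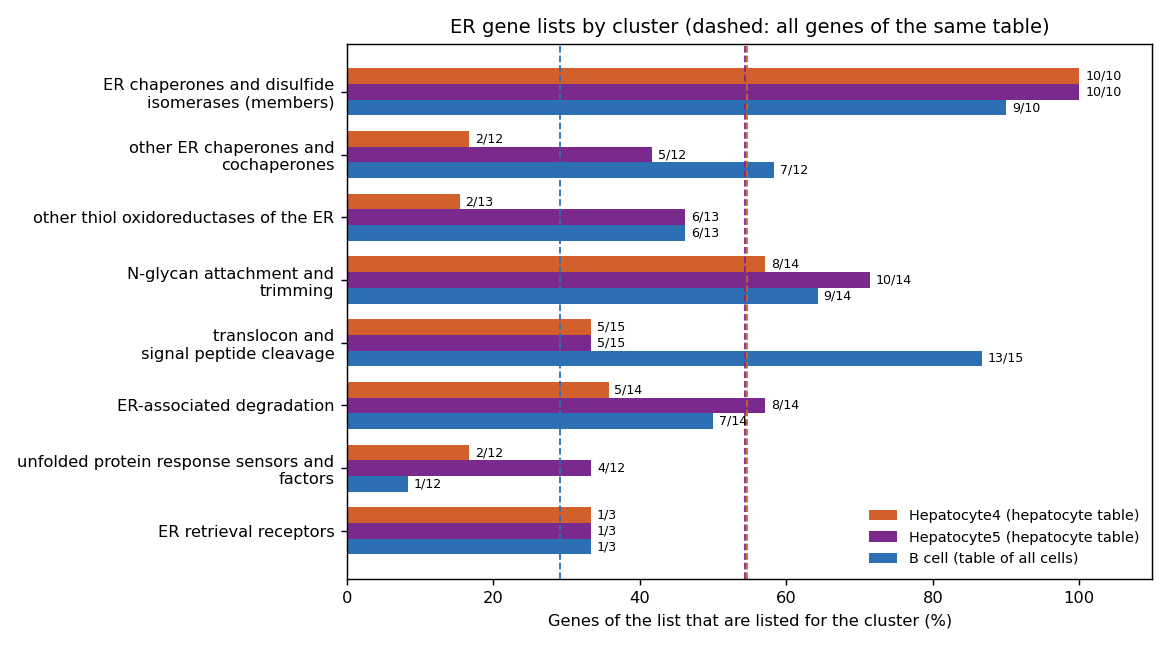
Percentage of the genes of each list that were listed for Hepatocyte4 and Hepatocyte5 (hepatocyte table) and B cells (table of all cells), with counts beside the bars and the percentage over all genes listed in the same table as dashed lines (a list also holds genes listed nowhere in it). The members reach 100%, 100% and 90.0%, and the translocon list reaches 86.7% for B cells and 33.3% for each hepatocyte cluster. Of its 15 genes, 13 are in the table of all cells and 7 in the hepatocyte table, where each hepatocyte cluster lists 5. The bars of B cells and of the hepatocyte clusters are therefore not on one base.

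Kupffer cells, the macrophages of the liver sinusoids, listed 8 members with a median share of 48.6% and a median difference of 8.7 points. Hsp90b1 had 78.1% against 49.8% in all other cells, while Dnajc3 had 37.4% against 35.9%. Hyou1 was listed for Kupffer cells although its share there, 25.8%, was 1.4 points below that of the other cells. T cells listed Hspa5, Hsp90b1, Calr, Pdia3 and Dnajc3, with 45.3 to 67.6%. Pdia3 led them by difference, with 30.3 points. The HSC and fibroblast cluster, with 0.171% of the cells, listed Canx (94.7%), Pdia3 (89.5%) and Dnajc3 (73.7%), each at least 37.8 points above all other cells. Serpinh1, the collagen chaperone of the ER, was listed for that cluster alone, with 73.7% against 0.1%. Among the clusters for which a member was listed, Hepatocyte5 had the highest share for all 10 in this table. The next cluster was Hepatocyte4 for Hspa5, Calr and P4hb, B cells for Hsp90b1, Pdia4, Pdia6 and Hyou1, and the HSC and fibroblast cluster for Canx, Pdia3 and Dnajc3. The gap between B cells and Hepatocyte4 was 4.2 points for Hsp90b1 and 3.6 points for Calr, and no replicate spread exists by which to order them.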

How the data were processed

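The study prepared 2 single-cell 3ʹ libraries, PBS and rIL-33, each 1 library. Upstream, UMIs were counted with Cell Ranger (mm10) by the authors, who kept cells of 200 to 3000 genes and up to 50% mitochondrial genes, scaled each cell to 10000, took natural logs, clustered with Seurat on 50 principal components and listed cluster markers. The deposited fractions, shares of cells above 0 in a cluster and in its reference cells, were used and are printed as percentages. The fold changes and p-values of the authors' comparisons were not used. In the hepatocyte table, 7 of 2103 rows carry dates as gene names and were left out. The table of all cells has 3742 rows. The tables carry neither depth nor cells per cluster.

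Cluster sizes were fitted by least squares to the balance of shares over 486 genes (hepatocytes) and 1115 genes (all cells), after a test on simulated data. Least absolute deviations, rows with shares 10 percentage points apart, a minimum share of 50%, the other table and 1 mismatch were the alternatives. Coordinates are from GENCODE M21 (GRCm38, called mm10 by the authors) and promoters from RefSeq (GRCm38.p6), with older symbols matched through RefSeq synonyms. RefSeq and GENCODE starts of a member lay 0 to 127 bases apart. Protein sequences were not used here. The members and lists were chosen with earlier results of these data known. Named genes were the members, listed genes of the ER lists (a gene of these lists is not reported here), and the 5 genes nearest to Hspa5 and to the members' median. The upper limit on genes was the only step against doublets, and cell barcodes were not analysed here. SciPy 1.17.1, pandas 2.3.3 and NumPy 2.4.6 were run under Python 3.11.15.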

Additional observations from a re-analysis of the deposited data

How the results depend on the processing

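The counts of members per hepatocyte cluster stayed at 10 for Hepatocyte4 and Hepatocyte5 with a minimum difference of 10 percentage points, were 9 and 10 with a minimum share of 50% (Hyou1 dropped out of Hepatocyte4), and were 9 and 10 in the table of all cells. The median share of the members was 81.4% in Hepatocyte4 and 95.05% in Hepatocyte5 in the table of all cells, against 66.0% and 93.4% in the hepatocyte table. The cause was not tested. Sizes fitted to rows with shares 10 points apart were 55.6% for Hepatocyte1, 14.8% for Hepatocyte2 and 10.2% for Hepatocyte3, and no solved share of a member moved by more than 0.00598 points. Of the 83 other ER genes, 3 were listed for Hepatocyte1, all with a lower share in the cluster. That count was 0 when the share in the cluster had to be at least 10 points above the share outside, which no gene with a lower share can meet. It was 1 in the table of all cells, where Hepatocyte5 listed 19 in place of 39. In all, 75 of 84 alternatives left the value within 0.05 points or, for a count, within 1.5 times. No paired analysis was possible because each group has 1 library and both are pooled. Depth limits every share and is not given with them, and shares near 100% cannot separate genes.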

Other observations

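The 3 ER genes listed for Hepatocyte1 in the hepatocyte table were Ppib, Ssr4 and Prdx4, and each had a lower share in the cluster than outside it. Ppib, a prolyl isomerase that works beside the disulfide isomerases, was above 0 in 21.9% of Hepatocyte1 cells and in 51.3% of the other hepatocytes. Ssr4, a subunit of the translocon-associated complex, was above 0 in 27.1% against 55.0%, and the ER peroxiredoxin Prdx4 in 12.3% against 32.6%. Lower shares stood in 159 of the 169 genes listed for Hepatocyte1, against 1 of 877 for Hepatocyte4 and 0 of 871 for Hepatocyte5. None of the 10 members was among these 159 genes, which were a small part of the 1604 genes in the hepatocyte table. Hepatocyte1 listed 10.5% of all those genes, so the absence of 10 genes does not set the members apart. Ppib and Ssr4 were listed for B cells (88.7% and 83.4%) and T cells (73.0% and 66.2%) in the table of all cells, and for neither Hepatocyte4 nor Hepatocyte5 in either table.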
